A study of Mus musculus with 6 samples.

Results

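Genes of the axon guidance, Notch, Wnt and transforming growth factor beta (TGF-beta) pathways were followed in lymphatic endothelial cells from the mouse meninges, the membranes around the brain. They were taken by name: a gene belonged if its symbol began as those of the semaphorins of classes 3 to 7, plexins, neuropilins, Slit, Robo and Unc5 proteins, Eph receptors and ephrins, Notch receptors and their Jagged and Delta ligands, Wnt ligands, Frizzled receptors, the coreceptors Lrp5 and Lrp6, the BMP and TGF-beta ligands and receptors, activin receptors or Smad proteins. Of the 4233 genes in the expression table, 43 belonged, out of 146 protein-coding genes with such names in the GENCODE annotation, and the other genes of these families are not analysed here.

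RNA sequencing covered 6 libraries, 3 of mice hemizygous for the 5xFAD transgenes and 3 of littermates without them (WT), all male, on the C57BL/6J strain and 6 months old. The 5xFAD line deposits amyloid in the brain, and its transgenes are driven by the Thy1 promoter, which is active mainly in neurons, so the sorted cells are not the main cells that express them. Cells were sorted as DAPI-negative, CD45-negative, CD31-positive and podoplanin-positive, and each library pooled the meninges of 10 mice. The comparison asks how these cells differ between 5xFAD and WT mice. The libraries held 7960827 to 13255050 reads in the listed genes. All 10 lymphatic endothelial markers fixed for the check were listed, and 0 of the 10 were called different between genotypes by limma (4 positive and 6 negative log2 fold changes). Of the other cell types, 8 of 14 blood endothelial, 7 of 13 meningeal fibroblast, 2 of 8 mural and 2 of 13 leukocyte markers were listed, together with 1 erythroid marker (Hbb-bt) and 0 of 5 arachnoid barrier markers. None of those listed was at 0 in all libraries, and 0 were called.

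Guidance molecules were first described in growing axons and also pattern vessels: semaphorins signal through plexins, with neuropilins as coreceptors, Slit proteins through Robo receptors, and ephrins through Eph receptors on neighbouring cells. Notch receptors are activated by Jagged and Delta ligands on adjacent cells. Wnt ligands bind Frizzled receptors with Lrp5 or Lrp6 and stabilise beta-catenin, and TGF-beta and BMP ligands signal through paired receptor kinases and Smad transcription factors. In lymphatic vessels Nrp2 is a coreceptor for VEGF-C, and Ephb4, Notch1 and BMP signalling take part in the formation of valves and collecting vessels.

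Among these 43 genes, 2 were lower in 5xFAD than in WT and 0 were higher (limma on log2(normalised count + 1), Benjamini-Hochberg adjusted p under 0.05, 4152 genes tested, all 43 among them). The lower genes were Jag2, a Notch ligand, and Robo4, an endothelial receptor of the Robo family. The share of lower calls, 4.65%, was close to the 4.48% of all tested genes that were called lower, beside 1.88% called higher and 6.36% called in either direction, so the number of calls does not set these pathways apart. Among the 4092 genes with reads in both genotypes, 124 were called lower and 59 higher, and among the 43 members still 2 and 0. At an unadjusted p under 0.05, 6 were lower (Jag2, Robo4, Ephb4, Bmp4, Epha3 and Ephb2) and 1 was higher (Nrp2), against 9.61% and 6.7% of all genes (16.3% in either direction). EdgeR on reads recovered from the table called 3 members lower (Jag2, Robo4 and Ephb4) and 0 higher, beside 4.12% and 1.93% of all genes and 6.05% in all. DESeq2 called 4 lower (Jag2, Ephb4, Bmp4 and Epha3) and 0 higher, beside 6.41% and 3.96% of all genes and 10.4% in all. Because the libraries are bulk samples, fewer cells of a type and less RNA per cell cannot be told apart.

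Median log2 fold change over the 43 genes was 0.04, with 23 positive and 20 negative values, beside -0.02 over all tested genes, and these signs depend on the scaling: they were 20 and 23 when the libraries were scaled to the same total, which moved the median of all genes to -0.14. The values of the WT and 5xFAD libraries did not overlap for 3 of the 43 genes that were higher (Plxna4, Smad4 and Bmp3) and 5 that were lower (Jag2, Robo4, Ephb4, Epha3 and Bmp4). Over all tested genes the same held for 7.97% and 10.1%, or 18.1% in either direction, and 18.6% of the members did not overlap. Spread between libraries was wide, with a median SD of log2(value + 1) of 0.73 within WT and 0.89 within 5xFAD, where the medians of all genes were 0.95 and 1.03. All 43 genes had reads in all 6 libraries, the lowest being 9 reads.

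**Figure D1:**
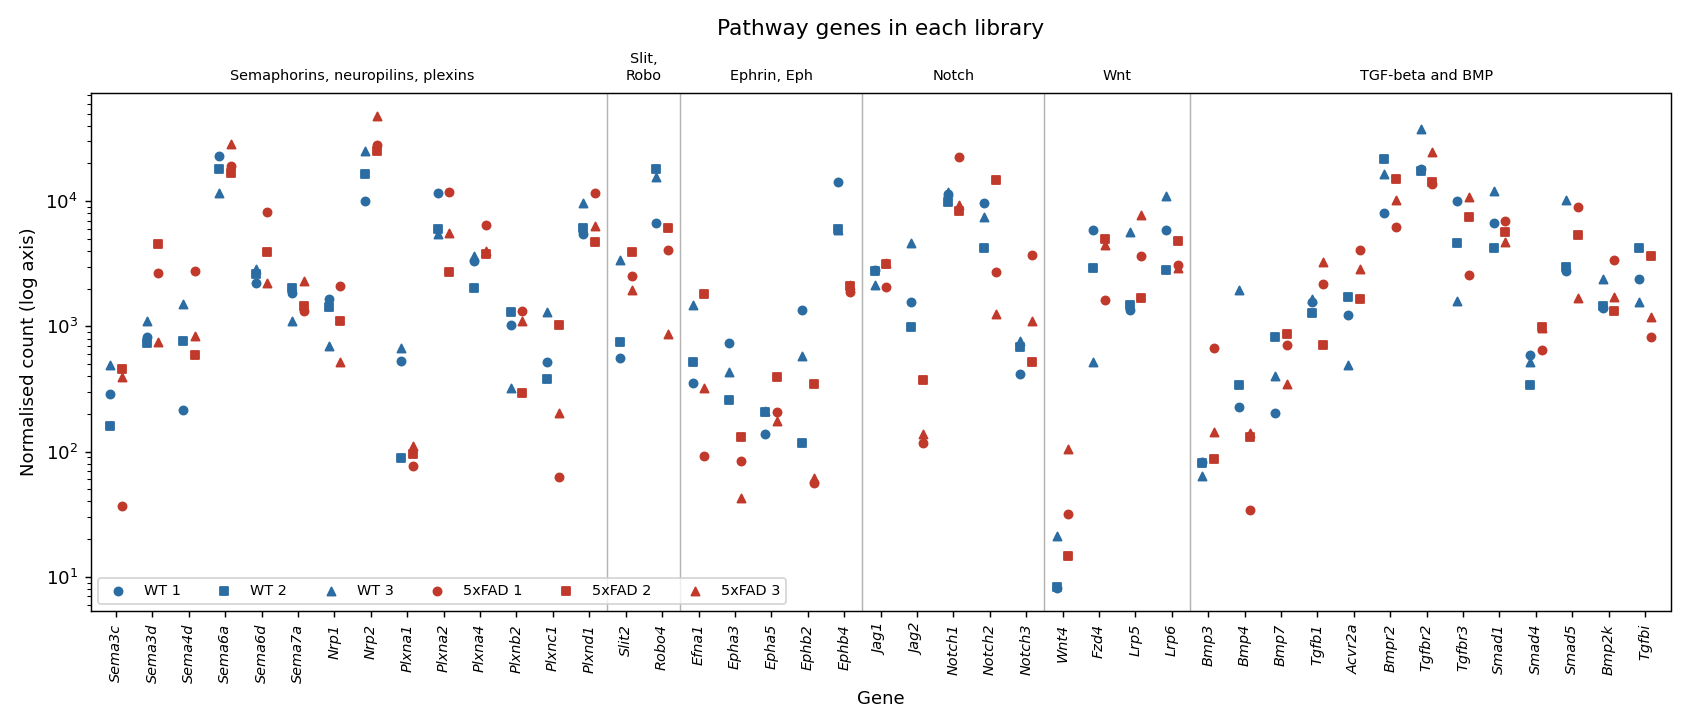
Normalised count of each of the 43 genes (x axis, grouped by family) in each of the 6 libraries on a log axis; blue symbols are the 3 WT and red symbols the 3 5xFAD libraries. Jag2, Robo4, Ephb4, Epha3 and Bmp4 have all 3 5xFAD libraries below all 3 WT libraries.

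Levels can be set between genes only per length, and here the normalised count was divided by the kilobases of exon in GENCODE. On that scale the highest WT levels were those of Tgfbr2, the type II TGF-beta receptor (2990 ± 1414 per kilobase, SD, n = 3), Robo4 (2530 ± 1115), Sema6a, a membrane-bound semaphorin (1993 ± 639), Ephb4, the receptor of ephrin-B2 (1869 ± 1020), and Nrp2 (1455 ± 634). Neighbours in this order differed by less than their SDs. In 5xFAD the levels per kilobase were 2138 ± 754 for Tgfbr2, 693 ± 498 for Robo4, 2454 ± 723 for Sema6a, 439.8 ± 31.0 for Ephb4 and 2825 ± 1030 for Nrp2 (SD, n = 3). Wnt4 was lowest in WT, at 3.01 ± 1.78 per kilobase (SD, n = 3), and Epha3 was lowest in 5xFAD, at 9.91 ± 5.11 (SD, n = 3). Of the 43 genes, 31 had a mean normalised count above the median of all tested genes.

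The sequences before the start sites of Robo4 and Ephb4 are shown because they were the 2 most abundant genes per kilobase among those whose groups did not overlap. They lie at chr9:37401722-37401896 for Robo4 and chr5:137349859-137350108 for Ephb4, and are from RefSeq (GRCm38.p6, plus strand of the gene, 5′ to 3′, ending 1 base before the most upstream transcript start in RefSeq or GENCODE), and capitals mark the motif GGGGCGG on either strand, known as the GC box of SP1 and KLF factors.
Robo4: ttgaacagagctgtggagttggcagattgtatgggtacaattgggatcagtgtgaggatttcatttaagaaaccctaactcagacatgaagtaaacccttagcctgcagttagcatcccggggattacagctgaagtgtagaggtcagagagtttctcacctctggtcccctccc
Ephb4: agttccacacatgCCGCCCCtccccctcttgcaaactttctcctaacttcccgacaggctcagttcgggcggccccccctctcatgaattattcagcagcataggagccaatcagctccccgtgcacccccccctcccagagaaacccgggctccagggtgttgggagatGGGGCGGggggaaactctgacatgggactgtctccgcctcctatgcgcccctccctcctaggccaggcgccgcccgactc

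In these windows Ephb4 holds 2 matches, 1 on each strand, and Robo4 none. The 250 bases before the RefSeq start had a GC content of 49.6% in Robo4, 64% in Ephb4 and 87.2% in Jag2, the last with 54 CG pairs, more than in 99.98% of promoters in the table. The Jag2 window lies downstream of a GENCODE transcript start and is not printed. Of the 43 genes, 34 had a promoter in the RefSeq table. In windows of 300 bases on both strands, the GC box was in 17 of these 34 and in 25.5% of all 27025 genes. The RBPJ site GTGGGAA of Notch signalling was in 3 (7.25% of all genes), the ETS site CCGGAAG in 2 (9.93%), the TCF and LEF site CTTTGAT of Wnt signalling in 1 (4.29%) and the SMAD site GTCTAGAC in 0 (0.248%). A match is a description of the letters and not a measured site.

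Notch ligands and receptors numbered 5, of 9 annotated. Jag2 was at 1566, 997 and 4623 normalised counts in WT and at 118, 371 and 138 in 5xFAD. Every 5xFAD library was below every WT library, and WT 3 was the highest. The log2 fold change was -3.40 (SE 0.99, 95% interval -5.35 to -1.45; limma adjusted p = 0.0132). Without WT 3 it was -2.77 (limma adjusted p = 0.179), and the call was also lost without 5xFAD 1 (-3.09, limma adjusted p = 0.0699) and without 5xFAD 3 (-3.20, limma adjusted p = 0.053). The gene lies on chromosome 12 from 112907819 to 112929776 (GRCm38).

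Jag1, the other Jagged ligand listed and the one whose loss in humans causes Alagille syndrome, was at 2799, 2768 and 2150.5 in WT and at 2078, 3163 and 3181 in 5xFAD, with overlapping groups. Its log2 fold change was 0.11 (95% interval -1.43 to 1.65; limma adjusted p = 0.968), and its sign turned when the libraries were scaled to the same total. The ratio of Jag2 to Jag1 within a library does not depend on the scaling. Chosen after the values were seen, it was 0.559, 0.36 and 2.15 in WT and 0.0567, 0.117 and 0.0434 in 5xFAD, with no overlap (exact permutation test on log2 ratios, two-sided p = 0.1, the smallest that 3 against 3 allow).

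The Notch receptors did not pass the test. Notch1, required for lymphatic valve formation, was at 11339, 9760 and 11891 in WT and at 22545, 8282 and 9387 in 5xFAD. The 5xFAD values lay on both sides of the WT range, with 1 library far above it (log2 fold change 0.14, 95% interval -0.86 to 1.14; -0.31 without 5xFAD 1). Notch2 was at 4250 to 9721 in WT and at 2703, 14873 and 1255 in 5xFAD (log2 fold change -0.87, limma adjusted p = 0.591). Its 5xFAD libraries spanned the whole WT range and more. Notch3, the receptor of mural cells, was at 416 to 770 in WT and at 3689, 516 and 1103 in 5xFAD (log2 fold change 1.08, limma adjusted p = 0.66). The summed level of the 2 listed mural markers, Pdgfrb and Kcnj8, was 1524 to 5708 in WT and 721 to 2339 in 5xFAD, and its part in the Notch3 values was not tested.

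Of the 13 annotated Slit, Robo and Unc5 genes, 2 were listed, Robo4 and Slit2. Robo4, which stabilises endothelial barriers, was at 6715, 17901 and 15628 in WT and at 4054, 6103 and 864 in 5xFAD. The groups did not overlap, although WT 1 and 5xFAD 2 lay close together. The log2 fold change was -2.15 (SE 0.64, 95% interval -3.40 to -0.90; limma adjusted p = 0.0151). Without 5xFAD 3, the lowest library, it was -1.31 (limma adjusted p = 0.22), and the call was also lost without WT 2 (-1.88, limma adjusted p = 0.202) and without WT 3 (-1.98, limma adjusted p = 0.124). DESeq2 did not call it (adjusted p = 0.14), nor did limma with a variance prior without a trend (adjusted p = 0.2), while edgeR did (adjusted p = 0.0337). The gene spans chromosome 9 from 37401897 to 37415115.

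Slit2, a secreted ligand of the Robo family, went the other way in its values: 558, 750 and 3409 in WT and 2545, 3915 and 1956 in 5xFAD. WT 3 lay within the 5xFAD range, and the difference did not pass the test (log2 fold change 1.26, 95% interval -0.43 to 2.94; limma adjusted p = 0.517).

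Eph receptors and ephrins gave 5 listed genes of 22, and 4 of them had negative log2 fold changes, under the scaling as deposited and under the 4 other scalings run. The median was -1.96, and 0 of the 5 passed by limma (3 at an unadjusted p under 0.05, all lower, beside 9.61% of all tested genes). Of all 4152 tested genes, 2103 had negative values under the deposited scaling, and the family was not tested as a set. Ephb4 was at 14140, 6004 and 5879 in WT and at 1880, 2085 and 2157 in 5xFAD. The 5xFAD libraries lay close together and all below WT. The log2 fold change was -1.96 (SE 0.71, 95% interval -3.35 to -0.57; limma adjusted p = 0.0746). EdgeR on the recovered reads called it (adjusted p = 0.0419), as did DESeq2 (adjusted p = 0.0248). Voom on the same reads did not (adjusted p = 0.0514), nor did limma with a variance prior without a trend (adjusted p = 0.206). No analysis that left out a library called Ephb4 (limma adjusted p from 0.0784 to 0.431), and without WT 1 the log2 fold change was -1.54. The gene lies on chromosome 5 from 137350109 to 137378669.

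Epha3, a receptor of A-class ephrins, was at 735, 258 and 432 in WT and at 84.6, 131 and 42.5 in 5xFAD, without overlap (log2 fold change -2.46, SE 1.06; limma adjusted p = 0.172). DESeq2 called it (adjusted p = 0.015). Ephb2, a receptor of B-class ephrins named here after its values were seen, was at 1362, 117 and 585 in WT and at 56.4, 344 and 61.0 in 5xFAD, where WT 2 and 5xFAD 2 made the groups overlap (log2 fold change -2.09, limma adjusted p = 0.293). Epha5 had a log2 fold change of 0.41 and Efna1, the ligand listed, of -0.78. Efna1 ran from 356 to 1479 in WT and from 92.1 to 1802 in 5xFAD, and its sign turned without 5xFAD 1 (0.23). Ephrin-B2, the ligand of Ephb4, is not analysed here.

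Blood endothelial cells also make Robo4, Ephb4 and Jagged ligands. The 8 listed blood endothelial markers, 4 with a positive and 4 with a negative log2 fold change, summed to 37669 to 43310 in WT and 33997 to 43013 in 5xFAD. Averaged on the log2 scale, they were at 11.18 ± 0.34 in WT against 10.80 ± 0.37 for 5xFAD libraries (SDs, n = 3 each; two-sided exact permutation test, p = 0.2). Lymphatic markers were at 14.14 ± 0.14 and 14.10 ± 0.49 on the same scale (exact permutation p = 1). What part a different share of blood endothelial cells has in the lower values of Robo4, Ephb4 and Jag2 was not tested.

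**Figure D2:**
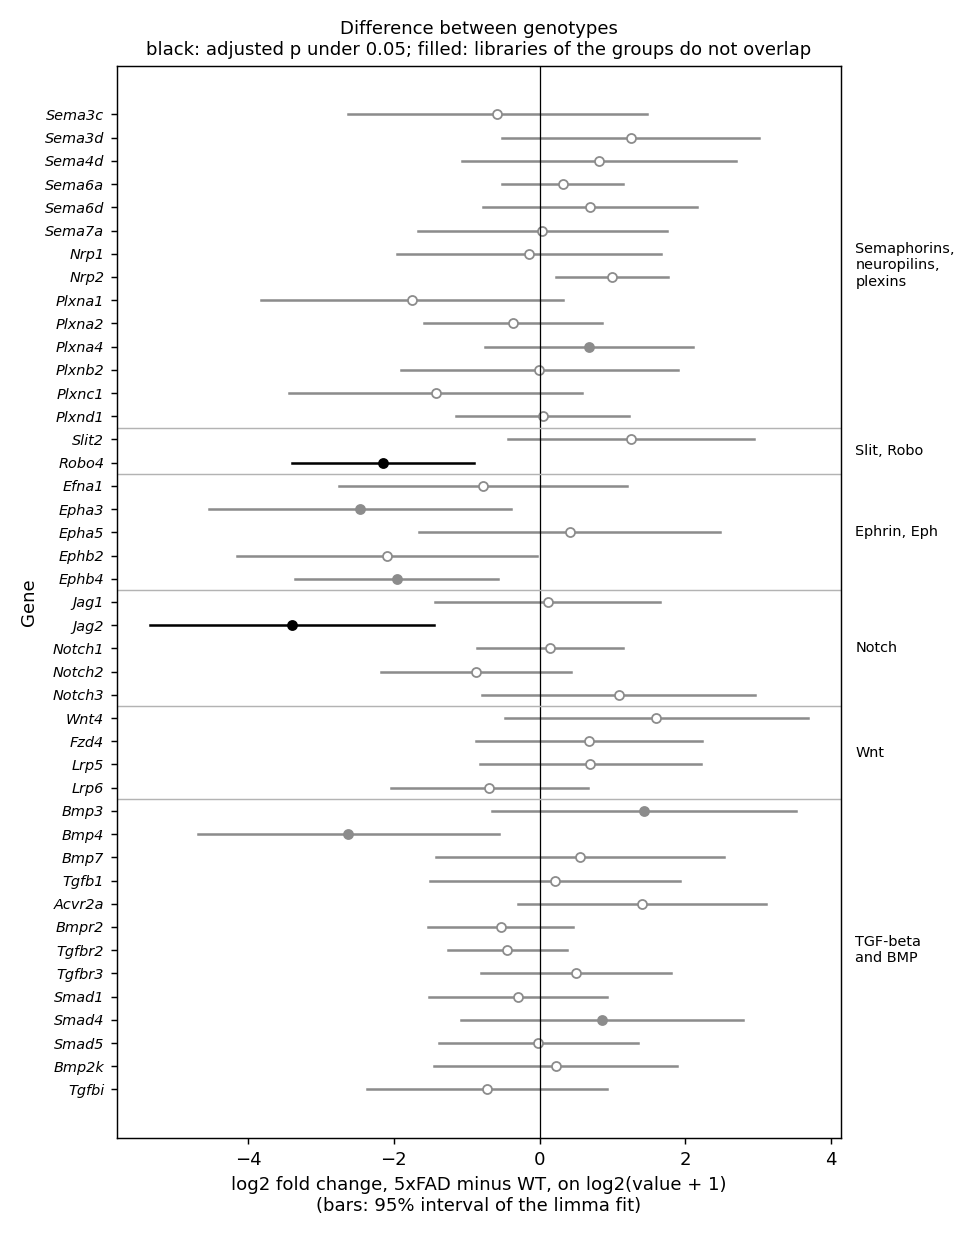
Difference of each gene between genotypes as the log2 fold change on log2(value + 1), 5xFAD minus WT, with its 95% interval from limma; black marks an adjusted p under 0.05 and filled circles mark genes whose libraries do not overlap. Only Jag2 (-3.40) and Robo4 (-2.15) are black, and the intervals of Ephb4, Epha3, Ephb2, Bmp4 and Nrp2 also leave out 0.

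Semaphorins, plexins and neuropilins formed the largest group, with 14 of 31 annotated genes, and 0 of the 14 passed by limma, edgeR or DESeq2 (1 at an unadjusted limma p under 0.05, Nrp2). Nrp2 was at 10088, 16536 and 25067 in WT and at 28040, 24896 and 47417 in 5xFAD. Both groups touched, since 5xFAD 2 was just below WT 3. The log2 fold change was 0.99 (SE 0.39, 95% interval 0.22 to 1.77; limma adjusted p = 0.119). EdgeR gave an adjusted p of 0.235 and DESeq2 of 0.47. With a variance prior without a trend the SE was 0.84 (limma adjusted p = 0.663), so the narrow interval rests on the trend. Nrp1, which binds class 3 semaphorins and VEGF-A, was at 1655, 1419 and 699 in WT and at 2113, 1099 and 519 in 5xFAD (log2 fold change -0.15, 95% interval -1.96 to 1.66). Its sign turned without WT 1 or without 5xFAD 3. The ratio of Nrp2 to Nrp1 within a library was 6.10, 11.7 and 35.9 in WT and 13.3, 22.7 and 91.4 in 5xFAD, so that the groups overlapped (exact permutation test on log2 ratios, two-sided p = 0.4).

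Of the plexins, Plxna4 was higher in each 5xFAD library than in each WT library (2019.7 to 3637 against 3805 to 6488), yet by less than the test could call (log2 fold change 0.67, 95% interval -0.75 to 2.10; limma adjusted p = 0.751). Plxna1, a receptor for semaphorin signals through neuropilins, was at 531, 88.3 and 678 in WT and at 77.1, 96.0 and 111 in 5xFAD. WT 2 lay within the 5xFAD range (log2 fold change -1.75, limma adjusted p = 0.431). Plxnd1, the endothelial plexin that binds semaphorin 3E, had a log2 fold change of 0.04 (95% interval -1.14 to 1.23), and its sign turned under 3 of the 4 other scalings. The values were 5479, 6049 and 9642 in WT and 11584, 4737 and 6348 in 5xFAD. Plxna2, Plxnb2 and Plxnc1 had log2 fold changes of -0.37, -0.00 and -1.43.

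The 6 semaphorins listed had log2 fold changes from -0.58 (Sema3c) to 1.25 (Sema3d), 5 of them positive, and none passed by limma (adjusted p from 0.549 to 0.992). Sema7a, 1 of the 5, was at 0.04 and turned negative when scaled to the same total or by TMM. Sema6a, the most abundant, was at 22872, 17926 and 11675 in WT and at 19002, 16851 and 28758 in 5xFAD (log2 fold change 0.31, 95% interval -0.52 to 1.15). Both groups shared most of their range. Sema3d, a secreted semaphorin, was at 735 to 1114 in WT and at 2691, 4507 and 754 in 5xFAD, where 2 libraries were above WT and 1 was within its range. Sema6d was similar in form, at 2209 to 2863 in WT and 8175, 3911 and 2218 in 5xFAD (log2 fold change 0.70).

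Wnt family genes listed were 4 of 31, and none passed by limma, edgeR or DESeq2 (0 at an unadjusted limma p under 0.05). Fzd4, the Frizzled receptor that with Lrp5 transmits the Norrin signal in retinal vessels, was at 5887, 2901 and 516 in WT and at 1624, 4985 and 4430 in 5xFAD. The groups overlapped, and the log2 fold change of 0.67 (95% interval -0.87 to 2.22) became -0.33 without WT 3. Lrp5 was at 1349, 1487 and 5671 in WT and at 3659, 1698 and 7809 in 5xFAD (log2 fold change 0.70, limma adjusted p = 0.759). Lrp6 was at 5930, 2805 and 11055 in WT and at 3064, 4847 and 2940 in 5xFAD (log2 fold change -0.69, limma adjusted p = 0.715). WT 3 held the highest WT value of both coreceptors. Wnt4, the ligand listed, was low, at 8.22, 8.37 and 21.2 in WT and 31.5, 14.6 and 105 in 5xFAD (log2 fold change 1.60, 95% interval -0.48 to 3.68).

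TGF-beta and BMP genes listed were 13 of 40, and 0 passed by limma (1 at an unadjusted p under 0.05, Bmp4, which DESeq2 called). Bmp4, a ligand of the type II receptor Bmpr2, was at 227, 343 and 1938 in WT and at 34.0, 130 and 141 in 5xFAD. The groups did not overlap, but WT 3 was far above the others. The log2 fold change was -2.62 (SE 1.05, 95% interval -4.68 to -0.56; limma adjusted p = 0.127; DESeq2 adjusted p = 0.0119) and -1.69 without WT 3. Bmp3, a BMP family member that opposes other BMPs in bone, was at 82.2, 81.8 and 63.7 in WT and at 673, 87.5 and 145 in 5xFAD. All 5xFAD values were above WT, though 5xFAD 2 only just (log2 fold change 1.43, 95% interval -0.66 to 3.52; limma adjusted p = 0.576). The value was 0.57 without 5xFAD 1 and 2.04 without 5xFAD 2. Bmp7 and Tgfb1 had log2 fold changes of 0.55 and 0.21.

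The receptors of this family overlapped between genotypes. Bmpr2 was at 8056, 21787 and 16415 in WT and at 6191, 14889 and 10254 in 5xFAD (log2 fold change -0.54, 95% interval -1.53 to 0.45). Tgfbr2 was at 18059, 17539 and 37848 in WT and at 13675, 14207 and 24624 in 5xFAD (log2 fold change -0.44, 95% interval -1.26 to 0.38). In both genotypes replicate 3 was its highest library. Acvr2a, a type II activin receptor, was at 1227, 1718 and 488 in WT and at 4091, 1644 and 2866 in 5xFAD (log2 fold change 1.41, 95% interval -0.30 to 3.11; limma adjusted p = 0.445). Only WT 2 and 5xFAD 2 crossed. Tgfbr3, also called betaglycan, had a log2 fold change of 0.50.

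Of the Smad proteins, Smad4, the partner of all receptor-activated Smads, was at 589, 340.3 and 521 in WT and at 653, 991 and 962 in 5xFAD. The groups did not overlap, and the difference did not pass the test (log2 fold change 0.86, 95% interval -1.08 to 2.79; limma adjusted p = 0.769). Smad1 and Smad5, which carry BMP signals, had log2 fold changes of -0.30 and -0.02. Bmp2k, a kinase named for its induction by BMP-2, and Tgfbi, a matrix protein named for its induction by TGF-beta, met the naming rule without being ligands, receptors or Smads. They had log2 fold changes of 0.22 and -0.72.

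**Figure D3:**
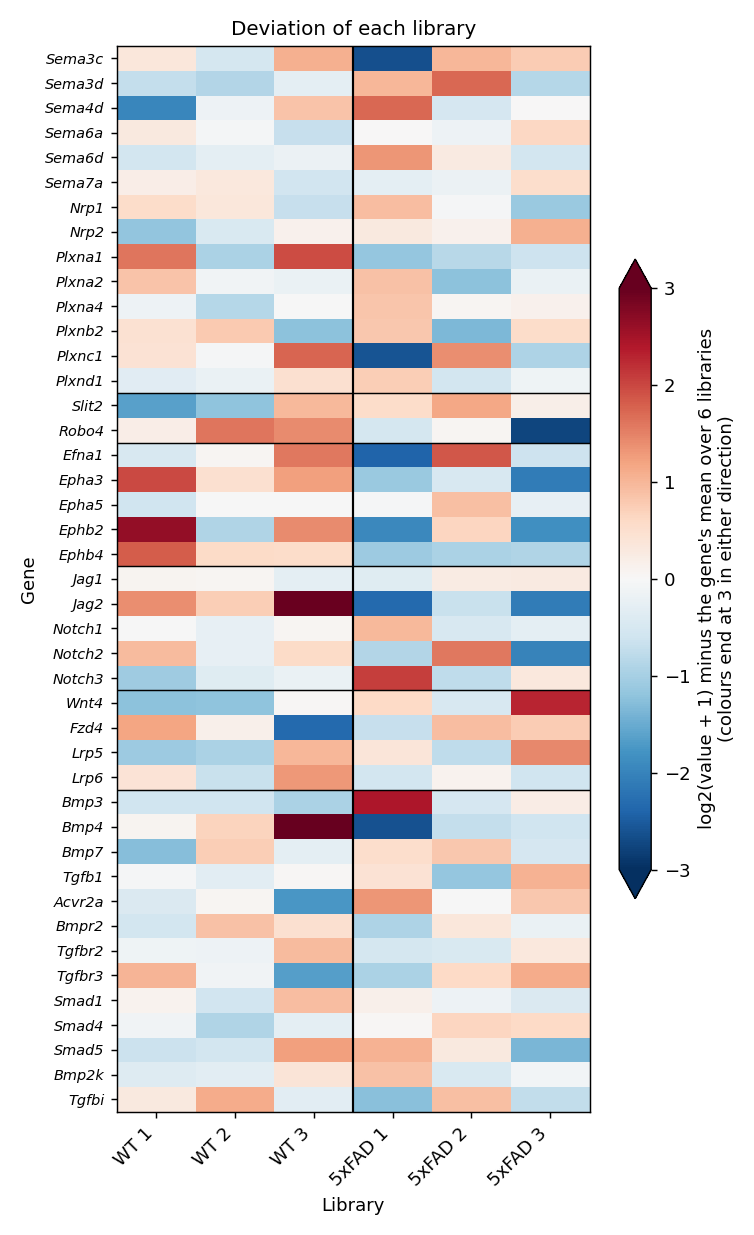
Each cell is a library's log2(value + 1) minus that gene's mean over the 6 libraries (red above, blue below; the colours end at 3 in either direction), with the 43 genes in rows by family and the libraries in columns. The rows of Jag2, Robo4, Ephb4, Epha3 and Bmp4 are red or pale on the WT side and blue or pale on the 5xFAD side, while most other rows mix colours within a genotype.

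By role, the 15 ligands had 11 positive log2 fold changes (median 0.31) and the 23 receptors 10 (median -0.15), with 1 lower call in each, Jag2 and Robo4. Single libraries differed in how often they held the extreme: WT 3 was the highest WT library for 24 of the 43 genes, against 36.1% of all tested genes. Leaving WT 3 out ended both calls, and so did leaving out 5xFAD 3, with 0 of the 43 genes called in either case.

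Further genes of the same pathways came from 4 lists of 217 genes, 59 of which were tested. Of these, 2 were higher and 1 was lower by limma, beside 1.88% and 4.48% of all tested genes, so these counts do not set the lists apart. At an unadjusted p under 0.05, 6 were higher and 2 lower, beside 6.7% and 9.61%, and the median log2 fold change was 0.24. In the Wnt list 1 of 14 was higher and 1 was lower, and they were a ligand and its receptor. Rspo3, a secreted R-spondin that strengthens Wnt signals, was at 1366, 2764 and 1169 in WT and at 105, 350.1 and 84.9 in 5xFAD, with every 5xFAD library below every WT library. The log2 fold change was -3.48 (SE 1.01; limma adjusted p = 0.0121), and the gene lies on chromosome 10 from 29452416 to 29535867.

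Lgr4, a receptor for R-spondins, was at 477, 40.0 and 252 in WT and at 621, 2125 and 2587 in 5xFAD. Every 5xFAD library was above every WT library, and WT 2 was the lowest (log2 fold change 3.14, SE 1.01; limma adjusted p = 0.0311). It lies on chromosome 2 from 109917647 to 110014257. Without WT 2 the value fell to 2.11 and the call was lost (limma adjusted p = 0.356), as it was without 5xFAD 2 (2.90, limma adjusted p = 0.122) or 5xFAD 3 (2.75, limma adjusted p = 0.198). It was 3.89 without WT 1 and 3.78 without 5xFAD 1. EdgeR did not call Lgr4 (adjusted p = 0.0952). Rspo3 lost its call without WT 2 (-3.10, limma adjusted p = 0.126), 5xFAD 1 (-3.24, limma adjusted p = 0.0588) or 5xFAD 3 (-3.09, limma adjusted p = 0.0731), and was at -4.10 without 5xFAD 2.

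The guidance list had 1 higher gene of 23, Enah, an actin regulator downstream of several guidance receptors, with 1 read over the 3 WT libraries and 503 over the 3 5xFAD libraries. It was at 0, 0 and 0.885 normalised counts in WT and at 25.7, 369.6 and 222.9 in 5xFAD, so every 5xFAD library was above WT and the single WT read was in WT 3. Enah passed the filter on mean level through its 5xFAD values alone (mean normalised count 206 in 5xFAD, 0.295 in WT). Its limma p-value rests on WT values at or near 0 and on the spread shared by genes of similar level. By limma, the log2 fold change of Enah was 6.72 (adjusted p = 1.66e-08) and ranged from 5.97 without 5xFAD 2 to 7.87 without 5xFAD 1. With 1 WT read, its size also depended on the processing. It was 4.71 with 5 added before the log, 7.53 with 0.5 added and 9.35 by DESeq2. The ratio of pooled reads was 619, with each genotype's summed reads divided by the sum of its library factors. This is not the ratio of the mean normalised counts. Its 95% exact counting interval, from 111 to 24491, covers counting error only. In the Notch list 0 of 11 and in the TGF-beta and BMP list 0 of 11 passed by limma (1 and 1 at an unadjusted p under 0.05, both higher). Median log2 fold changes were 0.24 in the Notch list, 0.42 in the Wnt list, -0.02 in the TGF-beta and BMP list and 0.28 in the guidance list.

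**Figure D4:**
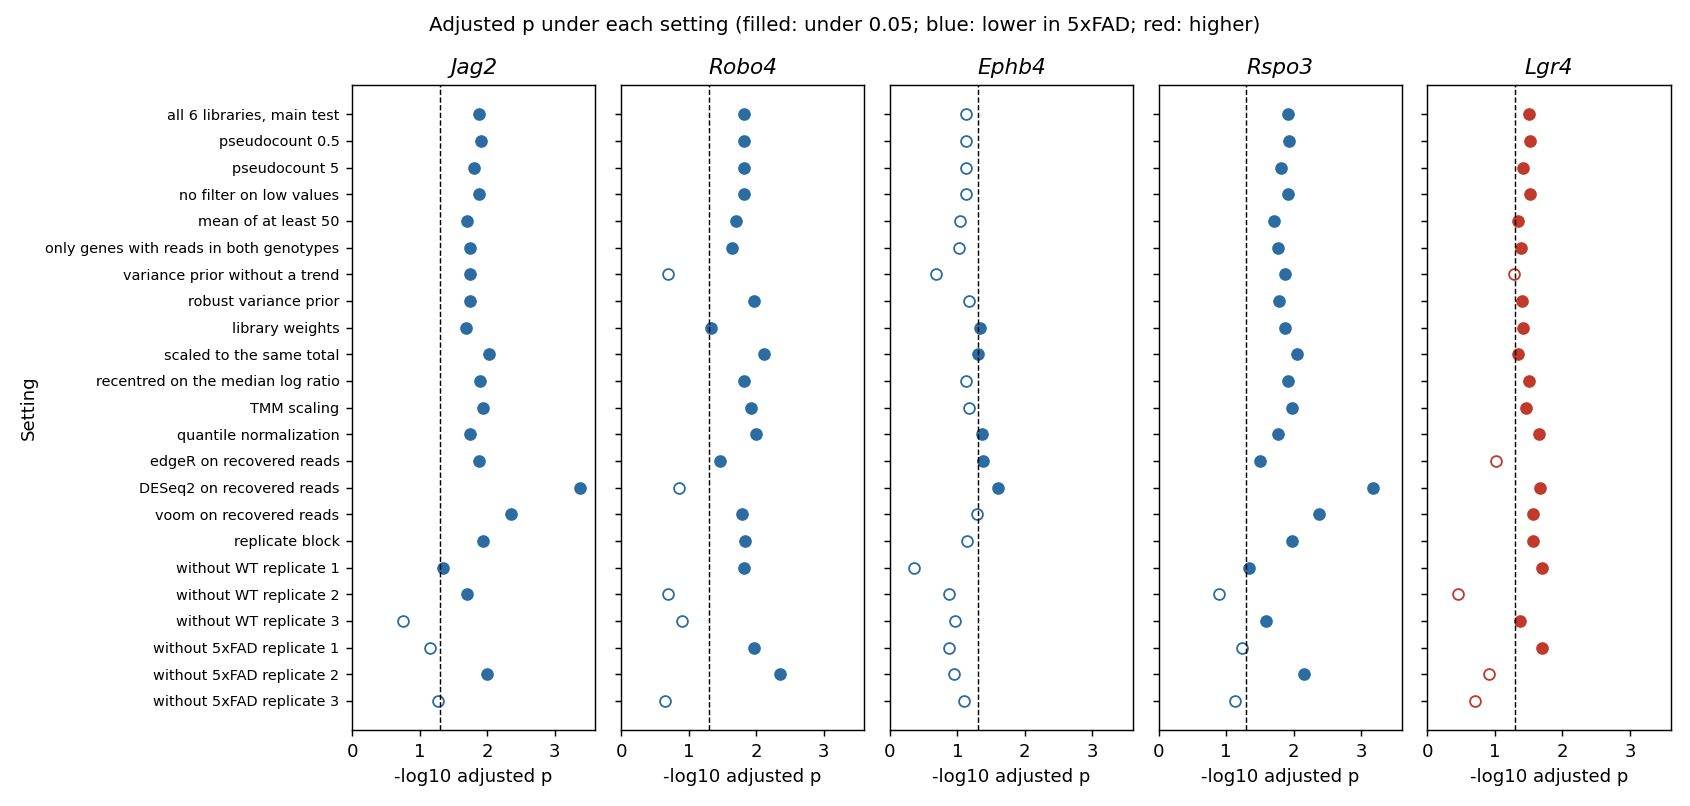
Adjusted p of 5 genes under each way of processing, as -log10 (x axis; the dashed line is 0.05), with filled circles where it is under 0.05, blue for lower and red for higher in 5xFAD. Each gene keeps its colour in every row, while Jag2, Robo4, Rspo3 and Lgr4 each fall short of the line in 3 of the 6 rows that leave out a library. Ephb4 falls short in all 6 of these rows.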

How the data were processed

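The authors deposited 1 table of normalized counts, a signal made by dividing each library's gene counts by a single factor. The submitters' processing notes list FastQC, Trimmomatic, Salmon, DESeq2 and mm10, with no settings. RNA was amplified linearly, per the labels' protocols, which can add spread. Dividing each column by its value of 1 read gave whole reads for 100% of values (within 1e-06). In either genotype, log2(reads + 1) of a listed gene never had an SD above 1.9996. Genes whose replicates differ more are not analysed here.

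Genes with a mean of at least 10 (4152 of 4233) were tested on log2(value + 1) with limma 3.58.1 in R 4.3.3, two-sided, without covariates. Fold changes on this scale understate those of low genes. The variance prior followed the mean level, and since its degrees of freedom were infinite, the spread of a single gene had no weight. As alternatives, edgeR 4.0.16 and DESeq2 1.42.0 ran on recovered reads. The limma script was tested on simulated data. Each simulated gene was given the spread shared at its level, as the test assumes, and none was removed for a large SD between replicates. The share of unchanged genes called there is thus not the error rate in these data. The script called 13.4% of genes changed 4-fold, 86.6% of those changed 16-fold and 0.23% of unchanged genes. Genes that did not pass may therefore still differ. Recovered reads cover listed genes only and are not the library depth.

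The members and lists were chosen with earlier results of these data known. Named genes are those called, those whose groups did not overlap, the 2 with the lowest p and the most abundant of each family, and known vessel regulators. Ephb2, Efna1, Notch3, Sema3d and Sema6d were added after their values were seen. Positions, exon lengths and overlaps are from GENCODE vM21 (GRCm38). Exons of 13 members overlap another gene's, 1 of them (Bmp2k) a listed gene's, and the strand of counting is not given in the sources used here. No label states separate sorts or extractions beyond the separate pools, so p-values measure the spread between pools. For limma this is the spread shared by genes of similar level, not that of the gene itself. Genes with a larger SD between replicates are absent, which may make this shared spread and the limma p-values too small. That was not tested.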

Additional observations from a re-analysis of the deposited data

How the results depend on the processing

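The 2 lower members became 1 with a variance prior without a trend and 4 with DESeq2, and ranged from 0 to 2 with single libraries left out. The 0 higher members stayed 0 under every alternative run. Of the other pathway genes, the 2 higher became 1 without a variance trend, 1 with edgeR and 4 with DESeq2, and 1 to 3 with a library left out, where the 1 lower ranged from 0 to 1. Over all genes, the 78 higher and 186 lower became 49 and 116 when a mean of 50 was required, which tests fewer genes, 120 higher with quantile normalization (160 lower), 163 with DESeq2 (264 lower) and 134 at an adjusted p under 0.1. The cause was not tested for the variance prior, quantile normalization, edgeR and DESeq2. With single libraries left out there were 56 to 84 higher and 145 to 192 lower.

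Deviations from the genotype means were uncorrelated between libraries of 1 number (0.00247, -0.0157 and -0.0126), so the replicate block says nothing of pairing. With it 80 genes were higher and 190 lower, and among members 0 and 2. Of 43 members, 38 kept their sign under every alternative that used all libraries and 28 under every one run. Scaled to the same total, Jag1 was at -0.012, Plxnd1 at -0.079 and Sema7a at -0.084. With TMM scaling Plxnd1 was at -0.0034 and Sema7a at -0.0085. With quantile normalization Plxnd1 was at -0.076 and Smad5 at 0.00067. Library weights gave -0.092 for Sema7a and 0.31 for Smad5, edgeR gave -0.019 for Sema7a, voom gave -0.027 for Sema7a and 0.040 for Smad5, and DESeq2 gave 0.024 for Plxnb2 and 0.011 for Smad5. Ranges over left-out libraries that cross 0 were -0.17 to 0.51 for Bmp2k, -1.90 to 0.23 for Efna1, -0.33 to 1.43 for Fzd4, -0.015 to 0.31 for Jag1, -0.31 to 0.41 for Notch1, -0.64 to 0.37 for Nrp1, -0.90 to 0.16 for Plxna2 and -0.62 to 0.67 for Plxnb2. The others were -0.32 to 0.33 for Plxnd1, -1.22 to 0.59 for Sema3c, -0.24 to 0.20 for Sema7a, -0.66 to 0.095 for Smad1, -0.55 to 0.67 for Smad5, -0.26 to 0.84 for Tgfb1 and -0.20 to 1.13 for Tgfbr3.

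Jag2 was called in 3 of 6 analyses without a library and Robo4 in 3 of 6. Ephb4 was called under library weights, the same total, quantile normalization, edgeR and DESeq2, but in no other alternative and in none of the 6 analyses without a library.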
